A study of Danio rerio with 6 samples.

Results

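A set of 44 zebrafish genes was chosen by measured values, with known families then left out by name. These genes were high in tars-/- embryos, with or without perk morpholino, and low when gcn2 was targeted in the same mutants. The unit was CPM, the reads on a gene scaled so that all libraries have the same total. A gene was taken when its mean over the 6 libraries was at least 1 CPM and when the lower of its 2 values in the high libraries (tars-/- control and tars-/- perk MO) was at least 2 times the highest of its 4 values in the low libraries (tars-/- gcn2 MO and the 3 sibling libraries), with 0.5 CPM added to each value. That ratio is called the gap below. Of the 19194 genes that reached this mean, out of 34326 in the files, 71 met the condition (0.370%). Of these, 27 were left out by symbol, most of them from families or with names known from the amino acid response, such as slc transporters, aminoacyl-tRNA synthetases, asns, psat1, chac1 and trib3, and some, such as irf3 and irf7, by the prefix of their symbol. The remaining 44 are described here.

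RNA was taken from whole embryos at 36 hours after fertilization, with 1 library for each of 6 conditions. The study's general methods for embryos give 0.045% 1-phenyl-2-thiourea to block pigment, without saying whether the sequenced embryos received it. The embryos were homozygous tars-/- mutants or their siblings, and each genotype was left uninjected (control) or received a morpholino, an antisense oligonucleotide that lowers the amount of a protein, against gcn2 (gcn2 MO) or perk (perk MO) at the 1-cell stage. The tars-/- line comes from a chemical mutagenesis screen and carries a premature stop codon in the gene for threonyl-tRNA synthetase. How many embryos made up a library, and how many of the siblings were heterozygous, was not given in the sources used here. The controls were uninjected and received no control morpholino, so injection itself and loss of the target cannot be told apart. With 1 library per condition no difference could be held against the spread between replicates, and no test was made. The 95% intervals printed with ratios are exact Clopper-Pearson intervals and cover counting error only.

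Gcn2 is a kinase that senses uncharged tRNA, the form of tRNA that builds up when an amino acid or its synthetase is lacking. It phosphorylates the translation factor eIF2 alpha, which slows translation in general while favouring translation of Atf4, a transcription factor that turns on genes for amino acid supply. Perk, which acts on the same factor, responds instead to unfolded protein in the endoplasmic reticulum.

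The 6 libraries held 29949451 to 47516784 reads on genes. Where 3 values of a genotype follow each other, their order is control, gcn2 MO, perk MO. The mRNA of tars itself stood at 71.6, 68.1 and 95.9 CPM in siblings against 37.3, 21.3 and 33.9 CPM in mutants, so it was lower in every mutant library. Markers of muscle, epidermis, red cells, neurons and other tissues were detected in every library, as whole embryos should give. Sibling perk MO and tars-/- gcn2 MO stood furthest from the control libraries in the sums that follow. Hatching gland markers summed to 7329 and 7849 CPM there against 1984 to 4293 CPM in the other 4 libraries. They were 6 measured genes, none at 0, with the symbol ctslb repeated among them. Of these, xbp1 did not share the order, at 270 and 303 CPM there against 293 to 599 CPM in the other 4 libraries. Early neuron markers (8 genes measured, none at 0) summed to 955 and 1029 CPM there against 1387 to 2123 CPM. The p53 targets (16 genes measured) summed to 4094 and 3961 CPM there against 1111 to 1948 CPM. Sibling gcn2 MO and tars-/- perk MO, also injected, lay between these libraries and the controls in each sum. They were at 4293 and 3942 CPM for hatching gland, against 1984 and 2609 CPM in sibling and tars-/- control. For early neurons they were at 1497 and 1387 against 2123 and 1708 CPM, and for p53 targets at 1853 and 1948 against 1111 and 1335 CPM. The choice of genes depended on these libraries to different degrees. Without sibling perk MO the condition was met by 45 genes, and without tars-/- gcn2 MO by 73. In RNA from whole embryos, fewer cells of a type and less RNA per cell cannot be told apart.

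The conditions fix 3 differences in direction for all 44 genes, and these are descriptions only. Between the control libraries all 44 were at least 2-fold higher in tars-/- (1.11% of all genes tested were), with a median log2 ratio of 1.78 and a range from 1.06 for rab39ba to 3.53 for mdp1. In tars-/- gcn2 MO against tars-/- control all 44 were at least 2-fold lower (2.68% of all genes), with a median of −1.49. With perk MO in both genotypes all 44 were at least 2-fold higher in tars-/- (3.39% of all genes), with a median of 2.13. The gap itself had a median of 2.46, from 2.02 to 6.57, while the 27 genes of the left-out families had a median gap of 3.40, from 2.12 to 6.34. There were 12 of the 44 genes with a gap of at least 3, against 14 of the 27. The largest gaps of the 44, 6.57 for mdp1 and 6.48 for lrrc58a, lay just above the largest of the left-out genes, 6.34. The counting interval was taken for the same ratio without the added CPM, which is larger for rare genes. It lay wholly above 2 for 31 of the 44 genes and wholly above 1 for all 44, which the choice of genes favours. The 3 genes just inside the limit were oat, lonp1 and polr3k, with gaps of 2.03, 2.03 and 2.02, and the 3 just outside were il12rb2l, gsto1 and dph3, with 1.99, 1.99 and 1.98. The mean levels of the 44 ran from 1.17 CPM for GPR45 to 102 CPM for lonp1. Their median was 15.5 CPM against 12.2 CPM over all genes tested. These means include the high libraries, in which the choice of genes asks for high values. They therefore do not show how abundant the 44 were without the mutation.

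**Figure D1:**
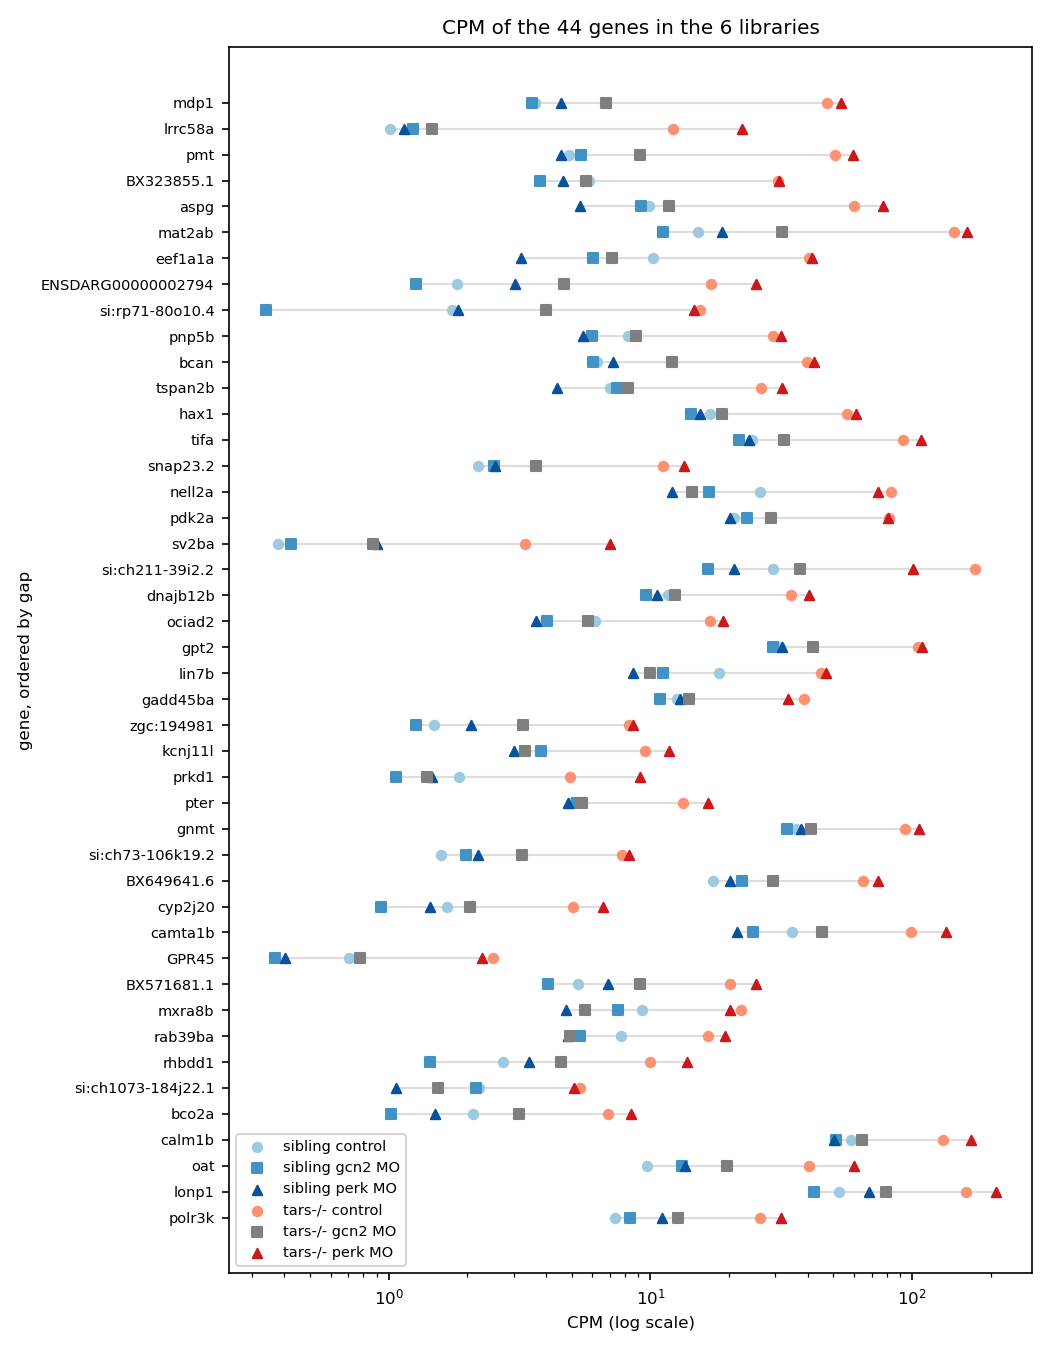
CPM on a log scale of the 44 genes in the 6 libraries, 1 row per gene ordered by gap and 1 point per library. In every row the tars-/- control and tars-/- perk MO points lie to the right of the other 4, which the choice of genes fixes, and in 33 rows tars-/- gcn2 MO is the highest of those 4.

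The first group is that of S-adenosylmethionine (SAM), the methyl donor that cells make from methionine. mat2ab (ENSDARG00000037121), which codes for a methionine adenosyltransferase that makes SAM, was at 15.2 CPM in sibling control, 11.2 in sibling gcn2 MO and 18.7 in sibling perk MO. In tars-/- it was at 145 CPM uninjected, 31.7 under gcn2 MO and 162 under perk MO. The ratio between the controls was 9.48 (8.71 to 10.3), and its level with gcn2 MO in the mutants still lay above all 3 sibling levels. pmt (ENSDARG00000100482), named for phosphoethanolamine methyltransferase, which spends SAM on the route to phosphocholine, was at 4.90, 5.43 and 4.54 CPM in siblings against 50.7, 9.14 and 59.3 CPM in tars-/-. Its ratio between the controls was 10.3 (8.91 to 12.1). gnmt (ENSDARG00000006840), whose enzyme spends SAM to methylate glycine, was more abundant in siblings and differed less between genotypes, at 35.9, 33.2 and 37.6 CPM in siblings against 93.6, 40.9 and 106 CPM in tars-/-, a ratio of 2.61 (2.45 to 2.78). gnmt lies outside the rule for named genes and was added after its values were seen.

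These 3 were the members of a list of 21 measured genes of the methionine cycle and SAM use, a list written after the members were seen, and 5 of the 21 were at least 2-fold higher in tars-/- control (1.11% of all genes were), 3 of them fixed by the choice of genes and of the list. The other 2 were cbsb, for cystathionine beta-synthase, with a log2 ratio of 2.02, and mtr, for methionine synthase, with 1.57. In both, tars-/- gcn2 MO was the highest of the low libraries: cbsb was at 172 CPM there against 293 in tars-/- control (gap 1.7), and mtr at 32.4 against 44.3 CPM (gap 1.36), with 25.9 CPM in sibling perk MO. The remaining genes of the list were closer between the control libraries. With perk MO some were further apart, in both directions. There pemt was at 4.08 CPM in tars-/- against 0.735 CPM in siblings, and cbsa at 2.80 against 8.68 CPM. mat2aa, the duplicate of mat2ab, was at 354 CPM in sibling control and 575 CPM in tars-/- control, a ratio of 1.63 (1.59 to 1.66), and ahcy, which clears the product left when SAM has given up its methyl group, was at 661 and 689 CPM. The median log2 ratio over the 21 genes was 0.28, against −0.109 over all genes tested.

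Enzymes that interconvert amino acids formed the next group. aspg (ENSDARG00000052942), for an asparaginase that splits asparagine into aspartate and ammonia, was at 9.84, 9.24 and 5.38 CPM in siblings. In tars-/- it was at 60.0, 11.8 and 77.4 CPM, and the ratio between the controls was 6.10 (5.47 to 6.82). Its product aspartate is the substrate of asns, the asparagine synthetase among the left-out names, so enzymes of both directions met the same condition. gpt2 (ENSDARG00000012199), an alanine aminotransferase, was at 31.2, 29.5 and 31.9 CPM in siblings against 105, 41.7 and 109 CPM in tars-/-. oat (ENSDARG00000078425), for the mitochondrial ornithine aminotransferase, was at 9.66, 13.2 and 13.6 CPM in siblings against 40.2, 19.6 and 59.8 CPM in tars-/-. Unlike gpt2, oat was higher in both injected sibling libraries than in sibling control, and tars-/- gcn2 MO kept 20.8% of its CPM difference between genotypes, measured against sibling gcn2 MO.

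gpt2 and oat were the members of a list of 31 measured amino acid enzymes outside the left-out names. Of the 31, 8 were at least 2-fold higher in tars-/- control (1.11% of all genes were), with gpt2 and oat among them fixed by the choice. Others among the 8 were cbsb, pycr1b, shmt1, aldh18a1 and tdh. aldh18a1, which starts proline and ornithine synthesis from glutamate, was at 40.4 CPM in sibling control, 90 in tars-/- control and 81.1 in tars-/- gcn2 MO. Enzymes 2-fold higher in the mutants were therefore not all low in tars-/- gcn2 MO. Among partners and feedback regulators of Atf4, 0 of 29 measured genes met the rule (0.370% of all genes met the value condition). The feedback regulator trib3, which is not in that list, met the condition with a gap of 2.99 and was left out by name. Of the 29, 5 were at least 2-fold higher in tars-/- control (1.11% of all genes were). The closest was cebpg, for a dimer partner of Atf4, at 56.5 CPM in sibling control, 198 in tars-/- control, 107 in tars-/- gcn2 MO and 194 in tars-/- perk MO (gap 1.81). ddit3, for the stress factor Chop, was at 19.8, 66.4, 59.6 and 47.2 CPM in the same order.

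Several of the 44 genes code for mitochondrial proteins. lonp1 (ENSDARG00000102765), for the matrix protease Lon, was the most abundant of the 44 by mean CPM. It was at 52.6, 42.2 and 68.5 CPM in siblings against 161, 79.3 and 208 CPM in tars-/-, with tars-/- gcn2 MO above all 3 sibling libraries. hax1 (ENSDARG00000036764), whose mammalian protein protects mitochondria and opposes cell death, was at 16.9, 14.3 and 15.4 CPM in siblings against 56.3, 18.7 and 60.8 CPM in tars-/-. In contrast to lonp1, its level in tars-/- gcn2 MO was 1.1 times that of sibling control (0.988 to 1.24), an interval that includes 1. pdk2a (ENSDARG00000020876), for a kinase that switches off pyruvate dehydrogenase, was at 20.9, 23.4 and 20.1 CPM in siblings against 81.8, 29.0 and 81.0 CPM in tars-/-, so perk MO made almost no difference within the mutants (ratio 0.991, 0.944 to 1.04). ociad2 (ENSDARG00000052336) was at 6.12, 4.01 and 3.64 CPM in siblings against 16.9, 5.78 and 18.9 CPM in tars-/-.

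A list of 19 measured mitochondrial proteases and chaperones was also written after the members were seen. In it 3 were at least 2-fold higher in tars-/- control (1.11% of all genes were). Of these, lonp1 and hax1 were fixed by the choice of genes and of the list. The other was yme1l1a, for an inner membrane protease, with a log2 ratio of 1.26 and a gap of 1.74. The chaperones hspd1 and hspa9 were at log2 ratios of 0.62 and 0.61. hspd1 was at 421 CPM in tars-/- control and 341 CPM with gcn2 MO, and hspa9 at 424 CPM in both. In 16 measured genes of pyruvate handling, pdk2a was the 1 gene at least 2-fold higher (1.11% of all genes were), which the choice fixes. The other pyruvate dehydrogenase kinases, pdk1, pdk2b, pdk3a and pdk4, had log2 ratios of −0.58, 0.16, −0.36 and −0.28.

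Of the genes for transcription and translation, eef1a1a (ENSDARG00000039502) codes for an elongation factor that brings charged tRNA to the ribosome. It was at 10.2, 6.02 and 3.21 CPM in siblings against 40.4, 7.12 and 41.5 CPM in tars-/-. The low libraries were spread widely for this gene, with sibling perk MO at 0.315 of sibling control (0.249 to 0.394). polr3k (ENSDARG00000037835), for a small subunit of RNA polymerase III, which transcribes tRNA genes, was at 7.33, 8.34 and 11.1 CPM in siblings against 26.3, 12.7 and 31.4 CPM in tars-/-. In 13 measured genes of this polymerase, counting its repressor maf1, polr3k and polr3f were at least 2-fold higher in tars-/- control (1.11% of all genes were). The choice fixes this for polr3k, while polr3f had a log2 ratio of 1.45 and a gap of 1.80. The median log2 ratio over the 13 was 0.14. camta1b and calm1b, chosen after their values were seen, code for a calmodulin-binding transcription activator and for calmodulin. camta1b was at 34.8 CPM in sibling control and 99.0 CPM in tars-/- control, and calm1b at 58.2 and 131 CPM. Calmodulin genes share much of their coding sequence, so reads could be split between copies in a way that the files do not show, and the other 5 measured had log2 ratios from −0.49 to 0.07.

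Among genes of stress signalling, tifa (ENSDARG00000091111), whose protein links receptors to NF-kappa B in mammals, was at 24.4, 21.8 and 23.7 CPM in siblings against 92.4, 32.3 and 108 CPM in tars-/-. The 3 sibling values lay close together, and the ratio of the controls was 3.79 (3.53 to 4.08). gadd45ba (ENSDARG00000027744), for a growth arrest protein induced by stress, was at 12.6, 10.9 and 13.0 CPM in siblings against 38.6, 14 and 33.5 CPM in tars-/-. dnajb12b (ENSDARG00000087473), for a co-chaperone in the membrane of the endoplasmic reticulum, was at 11.7, 9.58 and 10.6 CPM in siblings against 34.3, 12.4 and 40.3 CPM in tars-/-. Members of other stress programmes were looked for among the 44: 0 of 16 measured p53 targets, 0 of 16 cytosolic heat shock genes, 0 of 21 hypoxia genes, 0 of 17 genes of oxidative stress and glutathione, and 0 of 18 genes of endoplasmic reticulum stress outside the Perk branch met the rule. The same held for 0 of 12 mTORC1 brakes and amino acid sensors, 0 of 17 autophagy and lysosome genes, 0 of 8 secreted stress signals and 0 of 12 genes of tRNA and translation recovery, lists that hold none of the names left out beforehand. Of those names, the hypoxia genes include ddit4 and the oxidative stress genes slc7a11, which were below the limit in any case, with gaps of 0.99 and 1.90. Among those names, sesn2, for a sensor that restrains mTORC1, met the condition with a gap of 5.06, the secreted factors igfbp1a, stc2a, adm2a and vegfaa with gaps of 4.23, 4.19, 4.09 and 2.12, and the asparaginyl-tRNA synthetase gene nars with 2.66. With 0.370% of all genes meeting the rule before families were left out, 0 is what most lists of this size would give.

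The largest gap of all belonged to mdp1 (ENSDARG00000088040), for magnesium-dependent phosphatase 1, a gene without a symbol in the files that was named from the gene name table. It was at 3.62, 3.53 and 4.54 CPM in siblings against 47.1, 6.75 and 53.4 CPM in tars-/-. lrrc58a (ENSDARG00000076773), for a leucine-rich repeat protein, followed closely. It was near 1 CPM in siblings, at 1.01, 1.24 and 1.14 CPM, and at 12.2, 1.46 and 22.3 CPM in tars-/-. The 2 differed within the mutants: perk MO left mdp1 nearly where it was (ratio to tars-/- control 1.13, 1.07 to 1.21) and lrrc58a was higher with it (1.82, 1.63 to 2.04). pnp5b (ENSDARG00000099802), for a purine nucleoside phosphorylase, was at 8.19, 5.96 and 5.54 CPM in siblings against 29.4, 8.83 and 31.4 CPM in tars-/-.

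For 9 of the 44 genes the files or the gene name table gave a clone-based or provisional name or no symbol, so no role is given. The highest FPKM (reads scaled by gene length and library total, the scale on which levels of different genes can be compared) in tars-/- control was that of si:ch211-39i2.2 (ENSDARG00000104472), at 113 FPKM, and the lowest that of sv2ba, at 0.703 FPKM. si:ch211-39i2.2 was at 29.5, 16.6 and 20.9 CPM in siblings against 173, 37.3 and 101 CPM in tars-/-, and was the 1 gene of the 44 at least 1.5-fold lower with perk MO within the mutants. BX323855.1 (ENSDARG00000098940) had a gap of 4.93, with 3.79 to 5.84 CPM in siblings against 30.8, 5.69 and 31.1 CPM in tars-/-. ENSDARG00000002794 was at 1.27 to 3.04 CPM in siblings against 17.0, 4.66 and 25.4 CPM in tars-/-. si:rp71-80o10.4 (ENSDARG00000094316) was at 1.74, 0.339 and 1.84 CPM in siblings against 15.5, 3.98 and 14.7 CPM in tars-/-, so sibling gcn2 MO was far below the other low libraries. zgc:194981 (ENSDARG00000104758) and its neighbour si:ch73-106k19.2, which is outside the rule for named genes, overlap on the chromosome. They were at 8.29 and 7.78 CPM in tars-/- control and at 1.49 and 1.59 CPM in sibling control. Whether their counted exons overlap was not checked and strand is not given, so they may be 1 signal counted under 2 names.

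A last group codes for proteins of nervous tissue, of membranes and of vesicle fusion. bcan (ENSDARG00000099412), for brevican, a proteoglycan of the brain matrix, was at 6.27, 6.02 and 7.18 CPM in siblings against 39.6, 12.1 and 42.3 CPM in tars-/-. snap23.2 (ENSDARG00000055252), for a SNARE protein of membrane fusion, was at 2.20, 2.52 and 2.54 CPM in siblings against 11.2, 3.67 and 13.4 CPM in tars-/-. For both, the 3 siblings lay close together and tars-/- gcn2 MO lay above them. sv2ba (ENSDARG00000057427), for a synaptic vesicle glycoprotein, was rare, at 0.379, 0.424 and 0.902 CPM in siblings against 3.33, 0.871 and 6.99 CPM in tars-/-, and its ratio between the controls had a wide interval (8.77, 5.11 to 16.2). tspan2b (ENSDARG00000059202), for a tetraspanin, was at 6.98, 7.43 and 4.41 CPM in siblings against 26.5, 8.24 and 31.7 CPM in tars-/-.

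nell2a and lin7b behaved differently from these within the low libraries. nell2a (ENSDARG00000090690), for a secreted glycoprotein of neurons, was at 26.2, 16.8 and 12.1 CPM in siblings against 83.2, 14.4 and 74.1 CPM in tars-/-. lin7b (ENSDARG00000037932), for a scaffold protein of synapses, was at 18.2, 11.2 and 8.55 CPM in siblings against 44.7, 10 and 46.8 CPM in tars-/-. In both, sibling control was the highest of the low libraries and tars-/- gcn2 MO lay at 0.551 (0.493 to 0.616) and 0.549 (0.480 to 0.627) of it. Among the low libraries the summed early neuron markers had the same order. Relative to sibling control they were at 0.705 in sibling gcn2 MO, 0.450 in sibling perk MO and 0.485 in tars-/- gcn2 MO. In the high libraries the order was not shared. The markers were below sibling control there, at 0.804 in tars-/- control and 0.653 in tars-/- perk MO, while nell2a and lin7b were above it. The ratio of tars-/- gcn2 MO to tars-/- control was 0.173 (0.157 to 0.191) for nell2a and 0.224 (0.198 to 0.252) for lin7b, and all 8 neuron markers were lower as well, with a median log2 ratio of −0.70. nell2b, the duplicate of nell2a, was at 53, 32.4 and 22.7 CPM in siblings against 43.3, 22.0 and 33.7 CPM in tars-/-: it shared the order of the sibling libraries, and in tars-/- control it was below sibling control. The part of early neuron levels in these values was not tested. In tars-/- control, where nell2a and lin7b were high, 8 of 8 neuron markers were below their sibling control level.

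**Figure D2:**
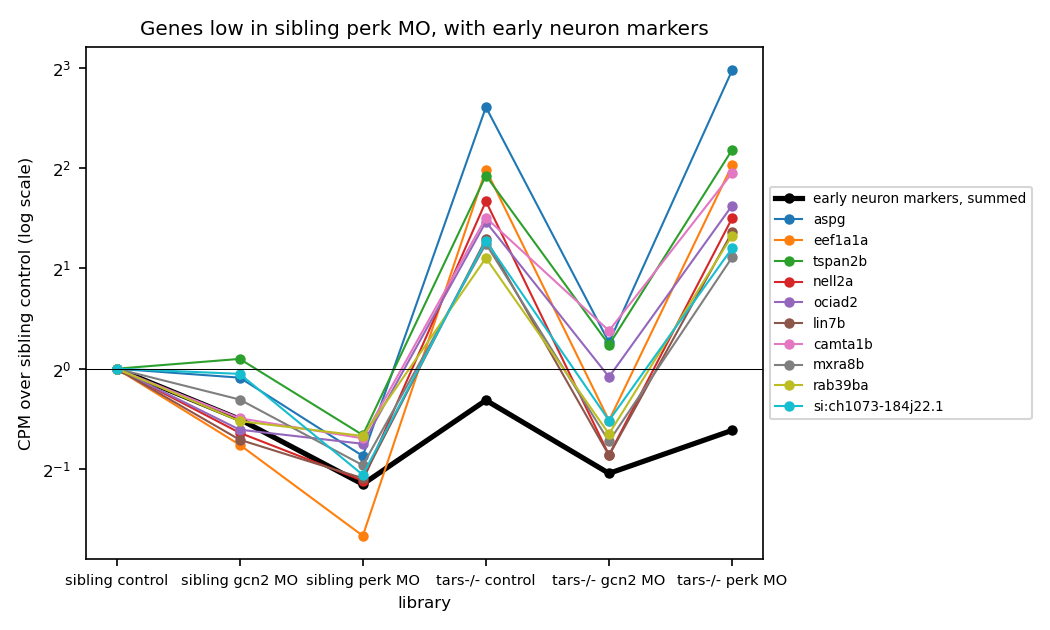
CPM relative to sibling control, on a log scale, in the 6 libraries for the 10 of the 44 genes that were at least 1.5-fold lower in sibling perk MO than in sibling control, with the summed CPM of 8 early neuron markers as the thick black line. The markers are at 0.450 in sibling perk MO and 0.485 in tars-/- gcn2 MO, and at 0.804 in tars-/- control. The low position of the 10 genes in sibling perk MO is fixed by how they were picked, and in tars-/- gcn2 MO they range from 0.549 for lin7b to 1.30 for camta1b.

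Values for the other members follow, all outside the rule for named genes. BX649641.6 was the most abundant of them by CPM, at 17.4, 22.3 and 20.2 CPM in siblings against 64.8, 29.4 and 74.2 CPM in tars-/-, and BX571681.1 was at 5.28, 4.07 and 6.91 CPM against 20.1, 9.11 and 25.4 CPM. For both, tars-/- gcn2 MO lay above every sibling library. mxra8b, for a matrix remodelling protein of the cell surface, was at 9.30, 7.52 and 4.77 CPM in siblings against 22.1, 5.63 and 20.1 CPM in tars-/-, and rab39ba, for a small GTPase of vesicle transport, at 7.71, 5.37 and 4.84 CPM against 16.6, 4.91 and 19.3 CPM. In these, as in nell2a and lin7b, sibling control was the highest of the low libraries. pter was at 4.84 to 5.26 CPM in siblings, 13.3 CPM in tars-/- control and 5.47 CPM in tars-/- gcn2 MO, and kcnj11l, for a potassium channel subunit, was at 3.01 to 3.82, 9.56 and 3.33 CPM. The remaining 6 had tars-/- control values of 10 CPM for rhbdd1, a rhomboid protease gene, 6.91 CPM for bco2a, a carotenoid oxygenase gene, 5.39 CPM for si:ch1073-184j22.1, 5.05 CPM for cyp2j20, a cytochrome P450 gene, 4.94 CPM for prkd1 and 2.51 CPM for GPR45, an orphan receptor gene. Sibling values of these 6 lay between 0.367 CPM for GPR45 and 3.44 CPM for rhbdd1, and their intervals were wide: the ratio between the controls was 3.55 (2.30 to 5.63) for GPR45, which rests on 28 reads in sibling control.

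The order of libraries on the same side of the condition was not fixed by it, and 4 such pairs were compared. They share libraries with each other and with the differences above, so their values are not independent of each other. In tars-/- gcn2 MO against sibling gcn2 MO, 38 of the 44 genes were higher and 6 lower, with a median log2 ratio of 0.51 against 0.016 over all genes tested. Of the 44, 15 were at least 1.5-fold higher (7.66% of all genes were) and 8 at least 2-fold higher (1.85%). The highest was si:rp71-80o10.4, at 2.42, and mat2ab was at 1.46, while the lowest was mxra8b at −0.39. The value of si:rp71-80o10.4 rests on 12 reads in sibling gcn2 MO, and its ratio without the added CPM had a wide interval (11.7, 6.49 to 23.3). tars-/- gcn2 MO was the highest of the 4 low libraries in 33 of the 44 genes, as it was in 24.8% of all genes. The next value uses the control libraries as well, which the rule sets against tars-/- gcn2 MO, so it is held low by the choice of genes and is a description only. Put as a share, the CPM difference between genotypes that was present without injection was left at a median of 14% with gcn2 MO, from −18.8% for si:ch1073-184j22.1 to 44.1% for bco2a, and it was under 25% in 36 genes. The share was 1.94% for lrrc58a, 7.39% for mdp1, 15.8% for mat2ab and 34.1% for lonp1. It was below 0 in 6 genes, among them nell2a (−4.14%) and lin7b (−4.35%), whose levels in tars-/- gcn2 MO were below those in sibling gcn2 MO. The 2 gcn2 MO libraries in this share also differed in hatching gland markers, with 6 of 6 higher in tars-/- gcn2 MO, and in early neuron markers, with 8 of 8 lower. The control libraries in it differed in the same directions, with 6 of 6 higher and 8 of 8 lower in tars-/- control. The part of these in the share was not tested.

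With perk MO in tars-/- against tars-/- control, 36 genes were higher and 8 lower, with a median log2 ratio of 0.20 against 0.053 over all genes. There were 3 genes at least 1.5-fold higher (5.45% of all genes were) and 1 at least 1.5-fold lower (2.86%), near the shares over all genes. The rule asks for high levels in both libraries, which also limits how far a chosen gene could fall with perk MO. The 3 higher genes were sv2ba (ratio 2.10, 1.7 to 2.61), lrrc58a (1.82) and prkd1, for protein kinase D1 (1.85, 1.55 to 2.21). The 1 lower gene was si:ch211-39i2.2, at 0.587 (0.565 to 0.610).

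In siblings, gcn2 MO against control gave a median log2 ratio of −0.22 against −0.021 over all genes, with 12 of the 44 genes higher and 32 lower. None of the 44 was at least 1.5-fold higher (3.80% of all genes were) and 8 were at least 1.5-fold lower (6.52%): rhbdd1, lin7b, eef1a1a, bco2a, nell2a, cyp2j20, si:rp71-80o10.4 and si:ch211-39i2.2. Sibling perk MO against sibling control gave a median of −0.08 against −0.043, with 19 higher and 25 lower. In that pair 2 genes, sv2ba and ENSDARG00000002794, were at least 1.5-fold higher (9.08% of all genes were) and 10 at least 1.5-fold lower (14.8%), the lowest being eef1a1a at a log2 ratio of −1.53.

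**Figure D3:**
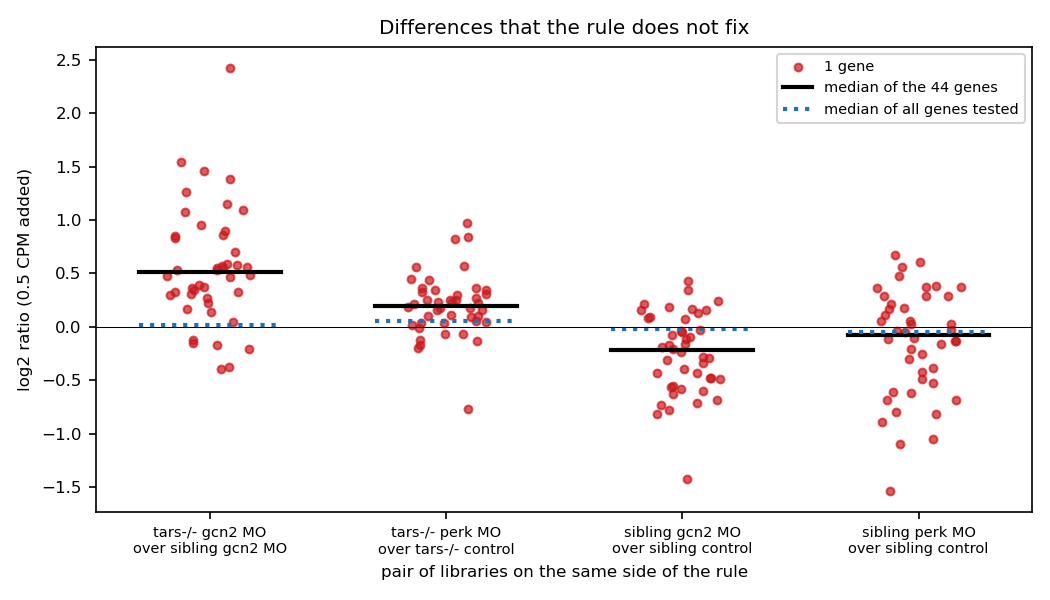
Log2 ratios (0.5 CPM added) of the 44 genes in the 4 pairs of libraries whose order the choice did not fix, with 1 point per gene, the median of the 44 as a solid line and the median of all genes tested as a dotted line. The medians of the 44 are 0.51, 0.20, −0.22 and −0.08 from left to right, and the points of the first pair lie mostly above 0.

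The same condition was also set without both perk MO libraries. It then chose 50 genes, the 44 and 6 more. In tars-/- perk MO against sibling perk MO, 48 of the 50 were at least 2-fold higher (3.39% of all genes were) and 50 of 50 were higher, with a median log2 ratio of 1.96 against 0.003 over all genes tested. This count is a description. For the 44 genes the full condition already fixes a 2-fold difference in this pair, so only the 6 more were free to fall short. The 44 genes were also proposed with results of these libraries known. The lowest were serpinh1b, for the collagen chaperone Hsp47, at 0.63, and jdp2b, for a basic leucine zipper factor, at 0.68. serpinh1b was at 876, 342 and 1101 CPM in siblings against 2977, 1046 and 1704 CPM in tars-/-, so it fell short through both a high sibling perk MO and a lower tars-/- perk MO library. The other 4 were cxcr3.3, dph3, mid1ip1b and mhc1uba, with log2 ratios of 1.08, 1.15, 1.49 and 1.92.

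**Figure D4:**
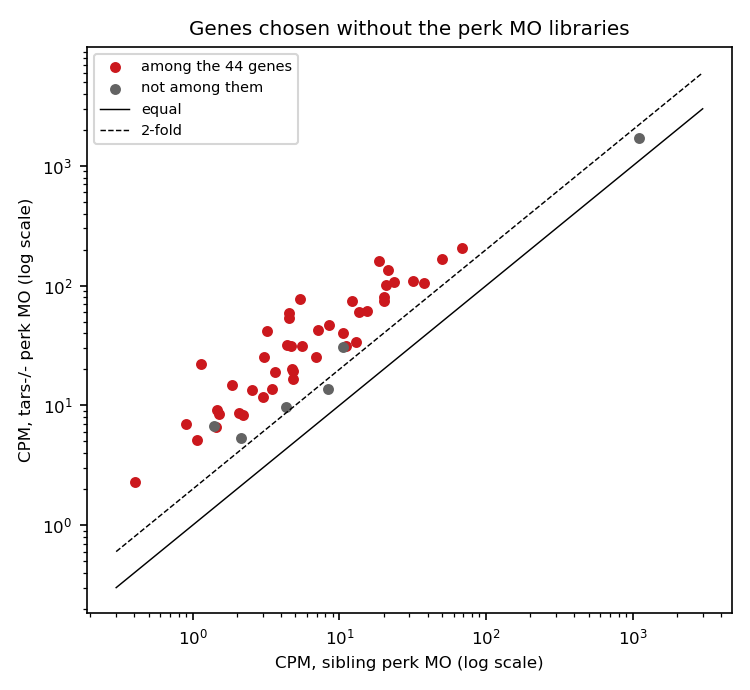
CPM in tars-/- perk MO against CPM in sibling perk MO, both on log scales, for the 50 genes chosen without these 2 libraries, with lines at equal levels and at 2-fold. All 50 points lie above the line of equal levels, and the lowest ratio is that of serpinh1b, at the far right, with a log2 ratio of 0.63.

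Many zebrafish genes are present as duplicates, and for 18 of the 44 genes a related copy, in most cases a duplicate named with a or b, was looked up after the values had been seen. Of these copies, 17 had a mean of at least 1 CPM. In tars-/- control against sibling control none of the 17 copies was at least 2-fold higher (1.11% of all genes were) and 1, mat2aa, was at least 1.5-fold higher (2.89%), with log2 ratios from −0.66 for eef1a1b to 0.70 for mat2aa and a median of −0.02. The genes chosen from the same pairs ran from 1.06 to 3.20 with a median of 1.74, which the rule fixes. The copies' counts were near those of genes in general. In 12 of the 17 pairs the chosen gene had fewer CPM than its copy in sibling control, and in 7 in tars-/- control, although CPM within a pair also depends on gene length. For gpt2 and its copy gpt2l the levels were close in sibling control, at 31.2 and 36.0 CPM, and apart in tars-/- control, at 105 and 36.6 CPM. For snap23.2 and snap23.1 they were at 2.20 and 50 CPM in sibling control and at 11.2 and 49.1 CPM in tars-/- control, so the copy that differed between genotypes was the minor one by CPM. For lrrc58a and lrrc58b they were at 1.01 and 23.9 CPM, then 12.2 and 25.2 CPM. Reads that fit both copies of a pair may have been counted under either, and how the counting treated them is not given in the sources used here.

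**Figure D5:**
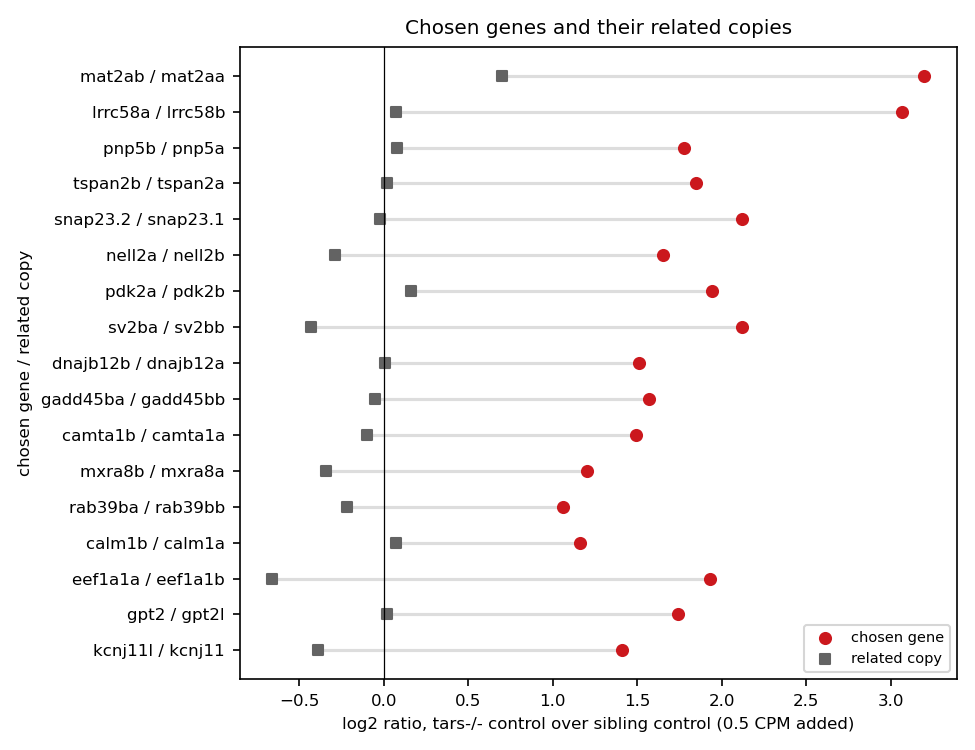
Difference on the log2 scale between tars-/- control and sibling control (0.5 CPM added, positive when higher in tars-/-) for 17 of the 44 genes (circles) and their related copies (squares), 1 pair per row. Every circle lies at 1.06 or above, as the choice fixes, and the squares lie between −0.66 and 0.70.

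On the chromosomes the 44 genes were not beside each other, with few exceptions. Gene order was taken from a RefSeq gene table of assembly GRCz12tu, where 40 of the 44 were placed. Of 79 measured neighbours, the nearest on either side, 3 were at least 2-fold higher in tars-/- control (1.11% of all genes were), 2 of them fixed by the choice, and the median log2 ratio of the neighbours was −0.12. The 3 were zgc:194981 and si:ch73-106k19.2, each counted as the neighbour of the other, and slc7a3a, a transporter of basic amino acids among the left-out genes. slc7a3a lies beside rab39ba with 1 annotated gene between them and was at 55.3 CPM in sibling control and 326 CPM in tars-/- control, against 7.71 and 16.6 CPM for rab39ba. mat2ab and psat1, for an enzyme of serine synthesis, were 7 annotated genes apart. The spans of 8 neighbours overlap those of the chosen genes in that assembly. Whether the exons that were counted overlap was not checked, and strand is not given, so it is not known whether reads were shared. For polr3k the overlapping cdip1 was at 10.9 CPM in sibling control and 10.7 CPM in tars-/- control. Of the 44 genes, 2 lie on the chromosome of tars, with at least 543 annotated genes between.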

How the data were processed

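Whole-embryo RNA of 6 conditions was sequenced, 1 library each. The authors aligned reads to GRCz10 with HISAT2 (version 2.0.5), with SAMtools (version 1.7) also in the submitters' processing notes, counted reads per gene with HTSeq and deposited raw counts, gene lengths and FPKM values per library. The deposited FPKM equalled count divided by length and library total within a relative deviation of 5e-06. Strand setting and multi-mapped reads are not given in the sources used here.

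Counts were scaled to CPM by library totals (29949451 to 47516784 reads, median 35418488) with Python 3.11.15, pandas 2.3.3, numpy 2.4.6 and scipy 1.17.1. Low genes (mean under 1 CPM) were left out and 0.5 CPM was added before ratios. Clopper-Pearson intervals (95%) cover counting error. TMM factors came from edgeR 4.0.16 and median-of-ratios factors from DESeq2 1.42.0 in R 4.3.3. No model was fitted, as there were no replicates. Scripts were tested on simulated data.

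The rule for named genes was the 25 with the largest gap, members of the pathway lists, and the 3 nearest the limit on either side. Genes outside it are named as extremes, as genes past a stated fold, or where the text says so. The members and lists were chosen with earlier results of these data known, and the lists on the methionine cycle, mitochondrial proteases, pyruvate, RNA polymerase III and calmodulin, and the related copies, after the members' values were seen. Names came from the files and from a gene name table, which held 26803 of the 34326 identifiers. Of 3 members without a symbol, 2 were named from it. RefSeq gene order (GRCz12tu) was matched by symbol, and its coordinates are not printed. Alternatives in scaling, added CPM, minimum, fold and libraries were tried. The gene for Gcn2 and promoter motifs were not analysed here.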

Additional observations from a re-analysis of the deposited data

Results flagged for a closer look

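In 2 of the 44 genes, perk MO went with opposite differences from the uninjected library that passed a minimum size in each of the 2 genotypes. The minimum was set after the data were seen. Other genes were opposite in sign but were passed over because the difference in 1 genotype was small. Among them, eef1a1a had log2 ratios of 0.04 in tars-/- and −1.53 in siblings, further apart than in either of the 2 genes. lin7b had 0.06 in tars-/- and −1.05 in siblings. aspg, the asparaginase gene, had a log2 ratio of 0.36 in tars-/- and −0.81 in siblings, which are 1.18 apart. camta1b, for a calmodulin-binding transcription activator, had 0.45 in tars-/- and −0.68 in siblings, which are 1.13 apart. Both lie in the direction that the rule favours, with tars-/- perk MO among the high libraries and sibling perk MO among the low ones. How many of all genes show such opposite differences was not counted. With 1 library per condition neither difference was tested. Early neuron markers were lower with perk MO in 8 of 8 genes in both genotypes, with median log2 ratios of −0.30 in tars-/- and −1.06 in siblings.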

How the results depend on the processing

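The condition was met by 44 genes as reported. With 2 CPM added in place of 0.5 it was met by 29, with a gap of 1.5-fold in place of 2-fold by 113, with 3-fold by 12, and without the tars-/- gcn2 MO library by 73. The count stayed within 1.5 times of 44 under the other alternatives, with 62 under both TMM and median-of-ratios factors, 47 after thinning to the smallest library, 51 with 0.1 CPM added, 36 with a minimum of 5 CPM, 49 without a minimum, 52 without sibling control, 46 without sibling gcn2 MO, 45 without sibling perk MO and 50 without both perk MO libraries. Of the 44, 29 met it under every scaling and added CPM tried. The medians of the 4 pairs that the choice did not fix were recomputed over the same 44 genes, for the alternatives in scaling, thinning and added CPM only. They kept their sign in these, and in one chosen after the data were seen that kept members of at least 10 CPM. For sibling perk MO against sibling control the median stayed near 0, from −0.101 in the latter to −0.028 with median-of-ratios factors, so its sign says little. Scaling by TMM factors moved the median log2 ratio of all genes between the controls from −0.109 to 0.005. Of 140 recomputed gaps of named genes, 11 moved beyond counting error, and the lowest log2 gap was 0.88. The planned share of promoters with a motif was not run. Mutants and siblings came from the same litters, but with 1 library per condition no paired analysis was possible. For the same reason no replicate could be left out. Depth limits genes near 1 CPM most: sv2ba rests on 15 reads in sibling control.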
